A study of Homo sapiens with 2 samples.

Results

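Chromosome 17 carried 504 of the 23612 accessible regions listed for GM12878, a human lymphoblastoid line of B cells immortalised by Epstein-Barr virus. Its regions were those of the deposited list placed on the assembled sequence of chromosome 17 in hg19. The chromosome was selected on 1 measured value, the low share of its regions at the highest score, which was known from an earlier reading of the same list. That share and its place along the chromosome are therefore given as a description, with no test. Openness was measured by ATAC-seq, where a loaded transposase inserts sequencing adapters into open DNA. The 2 libraries, from cultures of 50000 cells each for which no treatment is listed, make up a single group without a contrast. Their shared list holds no value per culture. The line comes from 1 donor's transformed B cells and is a model of an activated B cell rather than of a resting one. Because the list names no genes, the cell type was not checked here against marker genes.

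Accessible regions mark stretches of DNA that are free enough of nucleosomes for a transposase to enter, and are known to include active promoters, enhancers and sites bound by insulator proteins. Chromosome 17 is known as one of the gene-rich human chromosomes. It holds genes used by B cells beside gene families of epithelium, muscle and cartilage: IKZF3 (17q12) encodes Aiolos, an Ikaros family factor of B cells, CD79B (17q23.3) encodes a signalling chain of the B-cell receptor, and TNFRSF13B (17p11.2) encodes TACI, a receptor for the survival factors BAFF and APRIL. Genes are named below only as background to a cytogenetic band. None was assigned to a region, since no gene positions of hg19 were used here, and no sequence of hg19 was at hand to print.

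Chromosome 17 held fewer regions for its length than most chromosomes. Its 6.21 regions per Mb ranked 18 from the highest among 23 chromosomes (1 to 22 and X). Chromosome 16 lay close by at 6.18 per Mb, chromosome 19 held 8.85 and all other chromosomes together 7.76. Regions took up 0.558% of the length of chromosome 17 and 0.686% of the others. Both arms were alike in density, with 6.04 regions per Mb on the short arm (145 regions) and 6.28 on the long arm (359 regions).

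Counts in 1-Mb bins, placed by the midpoint of each region, were more even than on the other chromosomes. The 81 whole bins held a median of 6 regions (quartiles 3 and 9), against 7 (quartiles 2 and 12) in the 2949 whole bins elsewhere. The chromosome had fewer crowded bins and fewer empty ones. Bins of 12 or more regions made up 12.3% of chromosome 17 and 26.1% elsewhere, and empty bins 9.88% and 13.6%. The variance of the bin counts was 3.19 times their mean on chromosome 17 and 5.36 times elsewhere. The bins elsewhere pool chromosomes of unlike density, which can add to their variance, and no variance was computed for other single chromosomes. Neighbouring bins are not independent and no test was made.

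**Figure D1:**
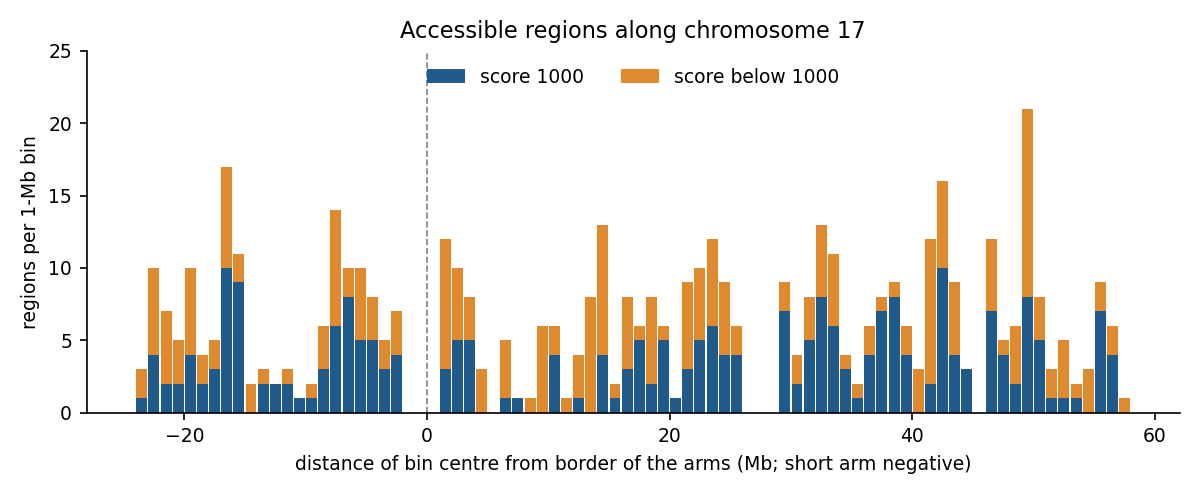
Number of accessible regions in each 1-Mb bin of chromosome 17 (bars, stacked by score: 1000 or below), against the distance of the bin's centre from the border of the arms in Mb, with the short arm negative. The tallest bar holds 21 regions, of which 8 are at score 1000, and the gaps are bins without a region.

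The bin with most regions, from 73 to 74 Mb in 17q25.1, held 21. This band is known to hold GRB2, an adaptor of B-cell receptor and growth factor signalling, and CD300A, an inhibitory receptor of leukocytes. Its 21 regions were mostly modest in width, from 358 to 1829 bp, and 8 were at the highest score. On the other chromosomes 124 bins held at least as many regions. With the bins shifted by 0.5 Mb, the highest count was again 21 but lay from 65.5 to 66.5 Mb, so which megabase is the fullest depends on the borders. The next bins held 17 regions (7 to 8 Mb, 17p13.1), 16 (66 to 67 Mb, 17q24.2) and 14 (16 to 17 Mb, 17p11.2). The fifth place was shared by 2 bins with 13 regions each, from 38 to 39 Mb and from 56 to 57 Mb in 17q22. The former reached over 3 bands, with 2 regions in 17q12, 5 in 17q21.1 and 6 in 17q21.2.

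The bin from 7 to 8 Mb differed from the busiest one in the size of its regions. Its 17 regions had a median width of 1024 bp, against 714 bp for the 21 regions from 73 to 74 Mb. In the former 10 regions were at the highest score, or 58.8%, and in the latter 38.1%.

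Of the 81 whole bins, 8 held no region. Those from 22 to 25 Mb lie in the centromeric bands. The others were the bin from 29 to 30 Mb in 17q11.2, the run from 50 to 53 Mb in 17q22 and the bin from 69 to 70 Mb in 17q24.3. The depth of the libraries is unknown, so these bins are not read as closed chromatin.

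By Giemsa stain, regions were most frequent in light bands, which are known to be gene-rich. The 12 light bands held 7.48 regions per Mb. The dark bands followed in the order of their stain, with 6.73 per Mb in the 3 palest, 5.32 in the 3 intermediate and 4.46 in the 4 darkest bands of the chromosome. On the other chromosomes the same 4 classes held 9.89, 8.20, 7.51 and 7.30 per Mb. Chromosome 17 lay under them in each of these 4 classes, so its lower density was not limited to 1 kind of band. The centromeric bands went the other way, with 2.78 regions per Mb on chromosome 17 and 1.075 elsewhere. All 10 of these regions lay in 17q11.1, between 25544545 and 25799552, next to its border with 17q11.2 at 25.8 Mb. The band 17p11.1 held 0. The sparsest band with any region was 17p12, with 14 regions in 5.3 Mb or 2.64 per Mb. It is known to hold PMP22, a myelin protein of peripheral nerve. The densest of at least 1 Mb were 17q24.2 with 10.7 and 17q25.1 with 10.5 per Mb. In 17q25.2, a band of 0.5 Mb, no region was listed.

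The regions of chromosome 17 were wide at the middle of the range and less often very narrow or very wide. The median was 807 bp (quartiles 616 and 1106), against 755 bp (quartiles 546 and 1081) on the other chromosomes. It ranked 3 among the 23 chromosomes, behind chromosome 19 with 839 bp and chromosome 16 with 808 bp. Regions of 400 to 599 bp made up 20.4% of chromosome 17 and 27.5% of the others. Regions of 1600 bp or more made up 5.75% and 7.90%.

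On chromosome 17, 10 regions reached 2 kb, or 1.98%, against 3.29% on the other chromosomes. The widest spanned 3078 bp in 17q22 (chr17:56405097-56408174). The next were 2870 bp in 17p13.1 (chr17:8124503-8127372), 2823 bp in 17q12 (chr17:37023721-37026543), 2462 bp in 17p11.2 (chr17:16891252-16893713) and 2406 bp in 17p13.1 (chr17:8089370-8091775). Of these 5, all but the region in 17q12 were at the highest score. The band 17q22 is known to hold MPO, the myeloperoxidase of granulocytes, and MSI2, an RNA-binding protein.

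Each region carries a score from the authors, a whole number up to 1000, whose scale is named in neither the list nor the labels. It is used here to rank regions within the list. On chromosome 17, 256 regions (50.8%) were at 1000, against 13797 of 22940 (60.1%) on the other chromosomes. An exact 95% binomial interval for the share on chromosome 17 runs from 46.3% to 55.2%. Such intervals, here and elsewhere in the report, cover counting error alone and treat regions as independent, which neighbours are not. Chromosome 22 was lower by a small margin, at 50.7% of 152 regions, chromosome 16 stood at 57.0% and chromosome 19 at 62.1%. The remaining 248 regions of chromosome 17 spread over the whole range of scores, with 103 under 700, 79 from 700 to under 850 and 66 from 850 to under 1000. Below the cap the median score was 739 on chromosome 17 and 731 elsewhere. The first of these classes made up 20.4% of chromosome 17 and 17.1% of the others, and the second 15.7% and 12.4%. The third held 2387 of the 22940 other regions, also a smaller part than on chromosome 17. Just under the cap, 20 of the 504 regions of chromosome 17 and 754 of the 22940 elsewhere scored 950 or more.

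The low share was found beside wide regions, whereas over the list wide regions score high. To set widths aside, the share at score 1000 on the other chromosomes was taken in width classes of 100 bp and averaged with the widths of chromosome 17 as weights. This gave 63.7%, or 321.2 regions, where 256 were observed. The difference of -12.9 percentage points was the lowest of the 23 chromosomes, each set against the rest in the same way. Chromosome 22 followed with -10.2 and chromosome 21 with -7.35, and chromosome 4 lay at the other end with 3.11. The smaller chromosomes 15, 16, 19, 20, 21 and 22 all lay under 0, as did chromosomes 1, 9 and 11, with chromosome 18 at -0.01. No test of these differences was made, as the chromosome was chosen for this share.

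**Figure D2:**
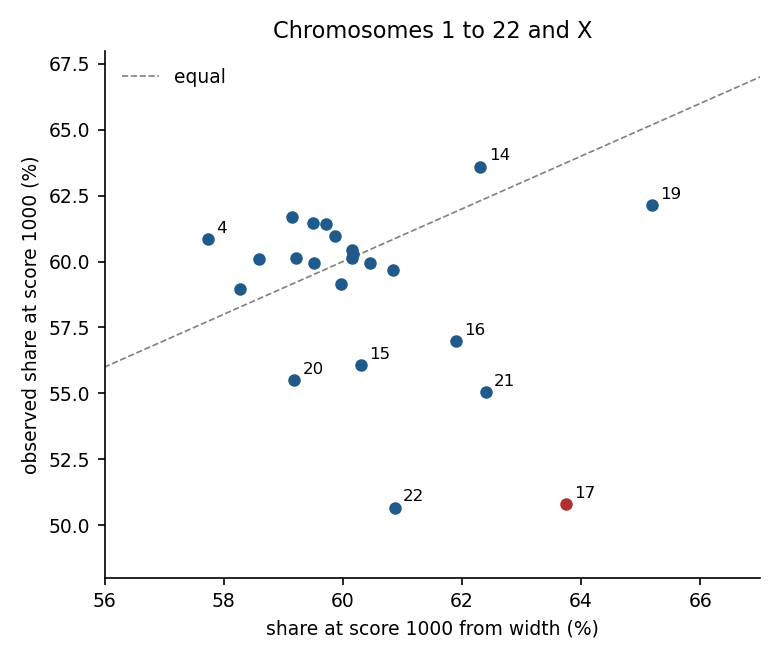
Observed share of regions at score 1000 (vertical axis, %) against the share computed from the widths of the same regions and the other chromosomes (horizontal axis, %), with 1 point for each of 23 chromosomes and a dashed line where both are equal. Chromosome 17 (red) is at 50.8% observed and 63.7% from width, farther under the line than any other point.

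In percentage points the shortfall was largest among regions of middle width. Of the 127 regions of 600 to 799 bp, 34.6% were at score 1000 (exact 95% interval 26.4% to 43.6%), against 55.1% elsewhere. At 400 to 599 bp the shares were 19.4% and 30.7%, at 800 to 999 bp 60.9% and 73.6%, and at 1000 to 1199 bp 71.2% and 85.2%. In points wider regions differed less, with 87.9% and 93.8% at 1200 to 1599 bp and 93.1% and 99.1% at 1600 bp or more. Elsewhere nearly all regions of these widths were at score 1000, which leaves little room for a difference in points. Under 400 bp chromosome 17 had only 19 regions, 2 of them at score 1000.

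**Figure D3:**
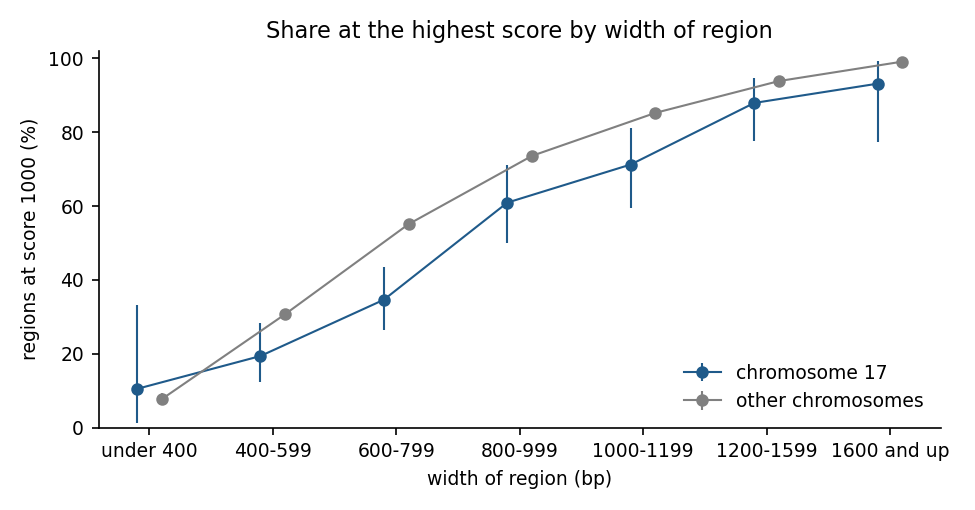
Share of regions at score 1000 (vertical axis, %) by class of width in bp (horizontal axis), for chromosome 17 (blue) and the other chromosomes (grey), with exact 95% binomial intervals. Chromosome 17 lies lower in every class from 400 bp up, most of all at 600 to 799 bp, with 34.6% against 55.1%.

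Along the chromosome the share varied widely between windows and bands, although 17 of the 22 bands with regions lay under the share from their widths. Bands of other chromosomes were not counted in this way, and a chromosome chosen for a low share would tend to have many such bands. On the short arm 54.5% of regions were at score 1000, and on the long arm 49.3%. The difference of -5.18 percentage points has a 95% interval (Newcombe) from -14.6 to 4.43. It is too wide to settle whether the arms differ. In windows of 10 Mb the share was lowest from 30 to 40 Mb, at 25.5% of 47 regions (exact 95% interval 13.9% to 40.4%). It was highest from 50 to 60 Mb, at 62.7% of 51 regions (48.1% to 75.9%), followed by 59.3% from 10 to 20 Mb.

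The largest part of the shortfall sat in the first bands of the long arm. Counted against the widths, chromosome 17 had 65.2 regions too few at score 1000. The stretch from 17q11.1 to 17q21.2 (24 to 40.9 Mb) accounted for 27.8 of them, or 42.6%, with 17.5% of the regions. Of its 88 regions 28 were at score 1000, or 31.8% (exact 95% interval 22.3% to 42.6%), where their widths gave 63.4%. The end of the short arm, 17p13.3 and 17p13.2, added 10.9 regions or 16.7% of the shortfall, with 7.94% of the regions and 15 of 40 regions at score 1000. The end of the long arm, from 17q24.2 to 17q25.3, added 16.7 regions or 25.6%, about in proportion to its 24.6% of the regions, with 59 of 124. These stretches were drawn after the bands' values were seen.

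Between these stretches the shares were closer to those from width, but less so in 17q21.31 to 17q21.33. From 17q22 to 17q24.1, 55 of 80 regions (68.8%) were at score 1000, and their widths gave 66.4%. From 17p13.1 to 17p11.2 the values were 61.0% of 105 regions observed and 64.9% from width. The bands 17q21.31 to 17q21.33 lay between, with 35 of 67 regions at score 1000 (52.2%) and 11.6% of the shortfall. The 5 bands at or over the share from their widths were 17p12, 17q23.2, 17q23.3 and 17q24.1, and 17q22 at a difference of 0.043 points. Leaving out 17q11.1 to 17q21.2 raised the share of the chromosome to 54.8%, and leaving out the end of the short arm as well to 56.6%, still under the 60.1% of the other chromosomes.

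**Figure D4:**
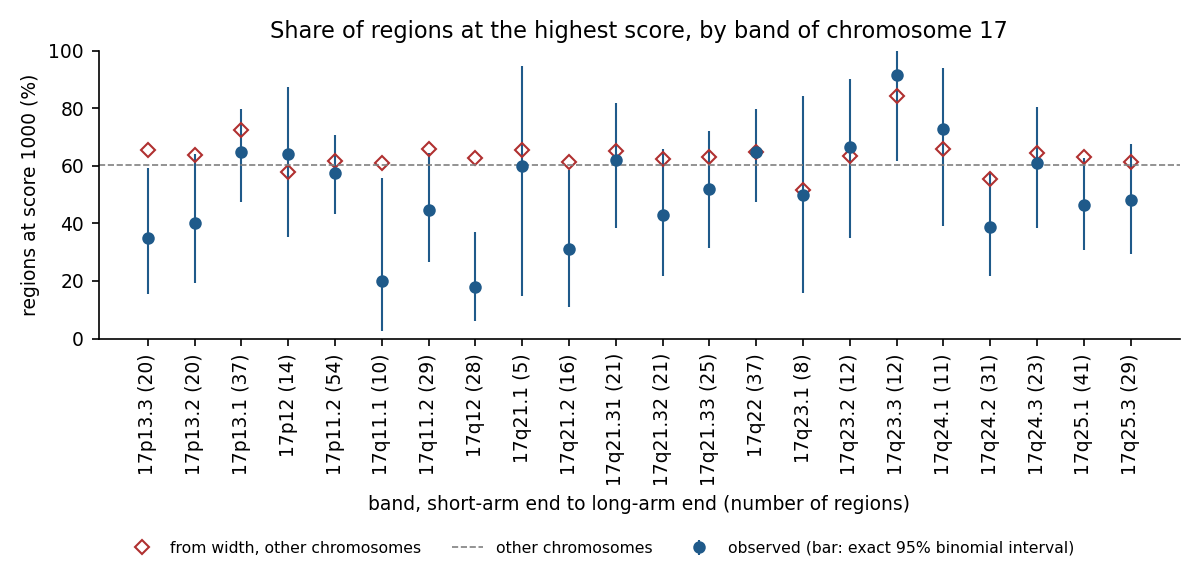
Share of regions at score 1000 (vertical axis, %) in each band of chromosome 17 that holds a region (horizontal axis, from the short-arm end, with the number of regions), with exact 95% binomial intervals. Open diamonds give the share from the widths of the band's regions and the dashed line the 60.1% of the other chromosomes. The band 17q12 is lowest at 17.9% and 17q23.3 highest at 91.7%.

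Among bands of at least 10 regions, 17q12, 17q11.1 and 17q21.2 had the lowest shares at score 1000, and 17q23.3, 17q24.1 and 17q23.2 the highest. In 17q12, 5 of 28 regions were at score 1000, or 17.9% (exact 95% interval 6.06% to 36.9%). Over all chromosomes it ranked 2 from the lowest of 683 bands with at least 10 regions, and was the lowest of 519 with at least 20. On the other chromosomes the bands of at least 10 regions had a median of 60.0% and ran from 7.14% to 100%, and those of at least 20 a median of 60.5% and a range from 25.0% to 86.4%. The band 17q11.1 had 2 of 10 and 17q21.2 had 5 of 16. At the other end 17q23.3 had 11 of 12 (91.7%, interval 61.5% to 99.8%), 17q24.1 had 8 of 11 and 17q23.2 had 8 of 12. The 3 bands with the highest shares are adjacent to each other.

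As a whole, the regions of 17q12 were not narrow. They had a median width of 815 bp, close to the 807 bp of the whole chromosome, and their widths gave a share of 62.6%. Its scores had a median of 795.5 with quartiles at 670 and 949.5, and 9 regions scored under 700. Within the band, wide regions scored higher: of the 10 regions of 1000 bp or more, 5 were at score 1000, and of the 18 narrower ones 0. The median width was 1229 bp at score 1000 and 705 bp below it. The 2823-bp region named above had a score of 769. On the other chromosomes 3 of 755 regions of 2 kb or more were below score 1000, and on chromosome 17 this 1 of 10. The second widest region of chromosome 17 below score 1000 also lay in 17q12, with 1741 bp and a score of 695 (chr17:33415232-33416972).

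Regions below score 1000 followed each other without a break over the longest run of the chromosome in 17q12. This run, of 11 regions, spanned 1.13 Mb (chr17:36955957-38084186). From the short-arm side its scores were 938, 769, 552, 656, 550, 550, 859, 906, 673, 733 and 742, and the widths ran from 382 to 2823 bp. A second run in 17q12, of 7 regions over 1.62 Mb (chr17:32291343-33914869), had scores from 594 to 883 and a median width of 854 bp. A run of 7 also lay in 17q24.2 (chr17:65078328-65647446) and 1 of 6 in 17q11.1 (chr17:25665595-25799552). Across the runs in 17q12 the bins from 33 to 34 Mb and from 37 to 38 Mb held 6 and 8 regions, none at score 1000. They were the 2 such bins among the 50 bins of chromosome 17 with 5 or more regions. Besides IKZF3, the band is known to hold CCL2, a chemokine for monocytes.

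Runs of this length also occurred on other chromosomes. The longest run of regions below score 1000 was 13 on chromosome 6 and 11 on chromosomes 3 and 12. Over all of chromosome 17, a region below score 1000 was followed by another in 51.8% of 247 cases. A region at score 1000 was followed by one below it in 46.9% of 256 cases. The 2 shares differed by few points.

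The band 17q23.3, known to hold CD79B, had the opposite profile. The widths of its 12 regions were, from the short-arm side, 1157, 1292, 1246, 2056, 1106, 869, 1499, 418, 1227, 1163, 1152 and 1588 bp. All but the 418-bp region, with a score of 588, were at 1000. The median width of 1195 bp was the largest of any band with regions, and these widths gave a share of 84.3%. Together with the last region of 17q23.2, 8 neighbours in a row were at score 1000 over 1.12 Mb (chr17:60802015-61921149), the longest such run of the chromosome. A run of 6 followed from 17q23.3 into 17q24.1 (chr17:62097232-62916002). Another run of 6 lay in 17p11.2 (chr17:16891252-17495632), the band of TNFRSF13B, and opened with the 2462-bp region given above.

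Dense bands were found with low and with high shares at score 1000. The bands 17q24.2 and 17q25.1 had 38.7% and 46.3% of regions at score 1000, whereas 17p13.1, with 8.81 regions per Mb, had 64.9% and 17q23.3, with 8, the highest share. By stain, the darkest bands had 64.0% of 86 regions at score 1000, where their widths gave 63.4%. The palest and the intermediate dark bands had 37.8% of 37 and 35.6% of 59, and light bands 52.6% of 312. The centromeric bands, the sparsest class at 2.78 regions per Mb, had 2 of 10, all in 17q11.1. Elsewhere 65.4% of 107 centromeric regions were at score 1000. On the other chromosomes the 4 light and dark classes lay between 59.5% and 60.5%. With 3 or 4 bands in each dark class, single bands weigh heavily: 17q12 alone gave 28 of the 59 regions of intermediate stain.

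Regions of chromosome 17 stood farther apart than elsewhere, and none formed a large cluster. The median distance from the end of a region to the start of the next was 68.4 kb (95% interval from order statistics 56.6 to 75.1; quartiles 25.06 and 179.8 kb). It was 43.6 kb over the other chromosomes together, 50.8 kb on chromosome 16, 50.9 kb on chromosome 19 and 99.8 kb on chromosome 22. Distances of at most 12500 bp made up 15.7% of the 503 intervals, against 25.27% elsewhere, and distances over 500 kb 6.16% against 4.65%. Both arms were alike, with medians of 66.9 kb and 68.5 kb.

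Joining regions at most 12500 bp apart gave 0 clusters of 5 or more regions on chromosome 17. The other chromosomes together had 163, or 0.711 per 100 regions, chromosome 16 had 2 and chromosomes 19 and 22 had 0. On chromosome 17, 363 regions (72.0%) stood alone, 47 groups were pairs and 15 groups held 3 or 4. The 2 groups of 4 are named after their values were seen. One lay in 17q22 (chr17:56405097-56430182), began with the widest region of the chromosome and had 3 regions at score 1000. The other lay in 17q11.1 (chr17:25659487-25681207), with widths from 433 to 960 bp and 1 region at score 1000. When joined at 25 kb, 1 cluster of 5 appeared, in 17p13.1 (chr17:8089370-8152128), with 4 regions at score 1000 and both of the wide regions of that band named above. The closest pair of all lay 2 bp apart in 17q21.32, a region of 1158 bp at score 1000 and one of 857 bp with a score of 613 (chr17:45726495-45728511).

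**Figure D5:**
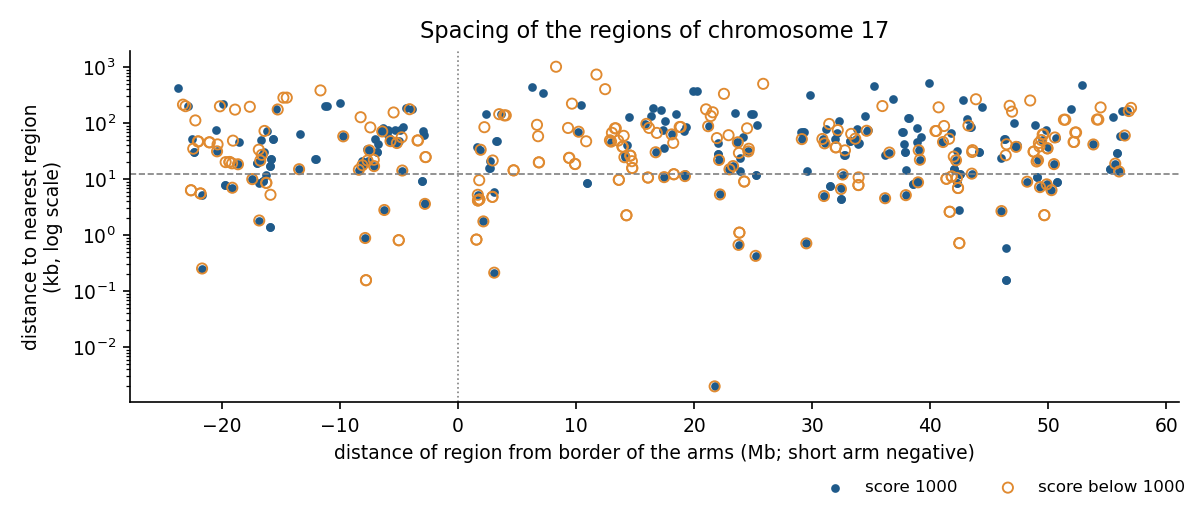
Distance from each region of chromosome 17 to its nearest region (vertical axis, kb, log scale) against its distance from the border of the arms (horizontal axis, Mb, short arm negative), with filled points at score 1000 and open points below. Where 2 regions are each other's nearest their points share a height and nearly coincide, and 141 of 504 regions lie at or under the dashed line at 12500 bp.

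The share at score 1000 lay under the share from width at every spacing. With a neighbour within 12500 bp, 46.1% of 141 regions were at score 1000 (exact 95% interval 37.7% to 54.7%), where their widths gave 65.7%. With the nearest neighbour from there to 50 kb, the share was 50.5% of 186 regions, where their widths gave 63.6%. At 50 to 200 kb it was 55.2% of 145, where their widths also gave 63.6%. Over 200 kb it was 53.1% of 32 (exact 95% interval 34.7% to 70.9%), where their widths gave 56.5%. On the other chromosomes the share was 60.7% within 12500 bp, 61.0% from there to 50 kb and 59.5% at 50 to 200 kb. It was 51.4% over 200 kb, where the regions were also narrower (median 618 bp, against 764 bp within 12500 bp).

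The longest stretch without a region, 4.29 Mb (chr17:21252393-25544544), ran across the centromere, and includes unsequenced DNA in which no region could be listed. The next longest was 3.20 Mb from 17q21.33 into 17q22 (chr17:49842151-53045039). Others were 1.64 Mb in 17q24.3 (chr17:68361656-70000728), 1.52 Mb in 17q11.2 (chr17:28706178-30228372) and 1.32 Mb in 17p12 (chr17:14263282-15587207). The band 17q24.3 is known for SOX9, a factor of cartilage and testis that lies amid long stretches without coding genes. The band 17q11.2 is known for NF1, a brake on RAS signalling. Regions are numbered in order in the list, and 15 numbers between 8031 and 8549 are skipped on chromosome 17. Of these 12 fall across the centromere and 1 in the 3.20-Mb stretch, and 0 in the other 3 stretches. Why numbers were skipped was not tested, and the list keeps no record of regions left out.

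The ends of the chromosome were not empty. The first region began 259.6 kb from the end of the short arm and the last ended 185.1 kb from the end of the long arm. The outermost 2 Mb held 13 regions on the short arm and 16 on the long arm. Of the former 5 were at score 1000 and of the latter 11, or 68.8% (exact interval 41.3% to 89.0%), where their widths gave 68.1%. This interval contains the 47.6% of the stretch from 17q24.2 to 17q25.3. In the last 5 Mb of the long arm 13 of 24 regions were at score 1000, or 54.2%, where their widths gave 61.1%. With so few regions, where in that stretch the low share lay is not settled.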

How the data were processed

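ATAC-seq was made from 2 cultures of GM12878 with 50000 cells each, per the labels. Both share 1 deposited list, in which each region has a start, an end and a whole-number score; the sources used here do not say how the authors made that score. Per the submitters' processing notes, which give no roles, MACS2 2.1.0, bedtools 2.24.0, BWA 0.7.13, CASAVA 1.8.4, Picard 1.92, Trim Galore 0.3.3 and SAMtools 0.1.19 were used, with the build hg19. The list gives no counts, so depth is unknown. Its name reads as filtered for reproducibility, mappability, mitochondrial sequence and blacklisted sites, and no detail of these filters was at hand.

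Regions were placed by midpoint in bins and in hg19 bands from circlize 0.4.16. Positions are printed counted from 1. Width is end minus start. The share from width used classes of 100 bp, with 1 class from 2000 bp up. Python 3.11.15, numpy 2.4.6, pandas 2.3.3, scipy 1.17.1 and matplotlib 3.10.9 were used, and the steps were tested on simulated data. No test was made: the members and lists were chosen with earlier results of these data known, and the list holds no replicate values. Regions to name were, by rule, the 5 widest, the clusters, the 5 longest intervals, the 5 fullest bins, the empty bins, and the 3 highest and 3 lowest bands by share among those with 10 or more regions. Others were picked after their values were seen. Genes named as background to bands come from a hand-written set of 32, all found by symbol on chromosome 17 of the RefSeq gene table (GRCh38.p14), whose coordinates were not used.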

Additional observations from a re-analysis of the deposited data

Results flagged for a closer look

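Signal also lay on a sequence that hg19 assigns to chromosome 17 without a position. On 17_gl000205_random the list holds 8 regions that lie outside the sequence described above, and 6 of them are at score 1000. They had a median width of 1588.5 bp and reached 5973 bp. Of the 8, 4 were 2 kb or wider, and all 4 were at score 1000, whereas the 504 regions of the assembled chromosome included 10 of that width. The alternative haplotype 17_ctg5_hap1 held 1 region, of 1064 bp and at score 1000. These 9 regions are counted in the 23612 of the whole list and entered no other value given above.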

How the results depend on the processing

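Of 24 alternatives over 9 results, 17 kept the value within its interval, or a count within 1.5 times, and 7 moved it; 4 were chosen after seeing the data. With regions at score 1000 only, chromosome 17 held 3.15 regions per Mb, the median width was 1017 bp and the median distance 142.9 kb; below score 1000 the median width was 650 bp. The share of 50.8% became 58.1% at a limit of 900 and 74.6% at 750, where the other chromosomes had 66.9% and 78.5%. Joining at 25 kb gave 1 cluster in place of 0. Some of these moves were certain beforehand, as a lower limit can only raise a share and fewer regions only lower a density. Without 17q11.1 to 17q21.2 the long arm minus the short arm went from -5.18 to 0.499 percentage points. This change of sign counts among the 17 kept, because the interval is wide, from -14.6 to 4.43. No paired analysis was possible because both cultures share 1 list and 1 group, and no replicate could be left out. Depth is unknown and the filters are not detailed, so a stretch without regions cannot be told from one too thinly read or filtered out.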
